A study of Mus musculus with 4 samples.

Results

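The genes described here are 8 growth-factor receptors and ligands of melanocytes: the receptors Met, Kit, Igf1r, Pdgfra, Pdgfrb, Mc1r and Ednrb and the ligand Kitl. They were chosen by name from the 21887 protein-coding genes of the RefSeq table used here, and each was given a window of its gene body with 20 kb on each side. The 8 windows spanned 999 kb and held 82 of the 103629 regions into which the deposited peaks merged. Open chromatin was mapped by ATAC-seq, which uses the transposase Tn5 to tag accessible DNA, in its Omni-ATAC form with 50000 cells for each reaction. The cells were B16F10, a mouse melanoma line, grown in vitro, carrying either a scrambled guide RNA (sgScramble, 2 libraries) or a guide RNA against Arid1a (sgArid1a, 2 libraries). Arid1a encodes a subunit of BAF, the mammalian SWI/SNF complex that moves nucleosomes, and both groups share the B16F10 background. The sources used here do not say whether a group was 1 clone or a pool, or whether its libraries were separate cultures, and the spread between libraries may therefore be technical.

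Kit, Met, Igf1r, Pdgfra and Pdgfrb are receptor tyrosine kinases, which on binding a ligand signal through the Ras to ERK and PI3K to AKT pathways. Kit ligand (Kitl) sustains melanoblasts through Kit, and hepatocyte growth factor acts on melanocytes through Met. Mc1r, the melanocortin 1 receptor, and Ednrb, the endothelin B receptor, are G protein-coupled receptors. Mc1r raises cAMP and steers pigment synthesis towards eumelanin, and Ednrb is needed for melanoblasts to spread from the neural crest.

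The start regions of 4 members are printed to set starts with a called peak beside starts without one. Peaks lay over the promoter-table starts of Met and Mc1r in every library, and over those of Pdgfra and Ednrb in none. Each sequence is the 250 bases before the transcription start of the RefSeq promoter table (GRCm38.p6), 5′ to 3′ on the strand of the gene. They lie at chr6:17463707-17463956 (Met, plus strand), chr8:123406832-123407081 (Mc1r, plus strand), chr5:75152001-75152250 (Pdgfra, plus strand) and chr14:103843702-103843951 (Ednrb, minus strand). Capitals mark matches, on either strand, to the E-box motifs CACGTG and CATGTG, to the AP-1 motif TGANTCA, to the cAMP response element TGACGTCA and to the GC box GGGCGG.
Met: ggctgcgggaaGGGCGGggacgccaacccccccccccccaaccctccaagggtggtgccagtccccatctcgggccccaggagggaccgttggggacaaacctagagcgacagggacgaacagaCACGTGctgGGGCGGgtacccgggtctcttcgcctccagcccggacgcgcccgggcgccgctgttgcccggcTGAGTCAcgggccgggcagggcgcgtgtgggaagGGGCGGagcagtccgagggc
Mc1r: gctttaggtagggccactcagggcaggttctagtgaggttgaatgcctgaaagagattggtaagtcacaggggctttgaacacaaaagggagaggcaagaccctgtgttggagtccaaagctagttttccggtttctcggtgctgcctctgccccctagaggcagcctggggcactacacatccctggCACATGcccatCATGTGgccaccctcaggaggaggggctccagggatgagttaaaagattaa
Pdgfra: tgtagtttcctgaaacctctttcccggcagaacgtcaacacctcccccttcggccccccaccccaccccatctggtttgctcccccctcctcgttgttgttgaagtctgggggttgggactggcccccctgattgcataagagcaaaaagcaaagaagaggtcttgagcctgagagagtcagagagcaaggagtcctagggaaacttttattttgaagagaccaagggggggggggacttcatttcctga
Ednrb: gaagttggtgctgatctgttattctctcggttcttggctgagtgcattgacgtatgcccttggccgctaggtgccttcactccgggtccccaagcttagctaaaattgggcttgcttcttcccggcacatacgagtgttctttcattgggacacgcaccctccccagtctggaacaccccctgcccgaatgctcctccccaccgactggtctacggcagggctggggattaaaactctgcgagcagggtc
The Met sequence held the E-box CACGTG 126 bases before the start, and TGAGTCA, the classical AP-1 element, 54 bases before it. Windows of 300 bases, which add 50 bases after the start, held CACGTG in 7.15% and TGANTCA in 7.81% of the 32851 windows of the table. The Mc1r sequence held the E-box CATGTG on both strands, 62 and 51 bases before the start, a motif found in 14.2% of all windows. The GC box was found in 35.7% of all windows and in those of Met, Kit, Kitl and Igf1r. The Pdgfra and Ednrb sequences held no match to any of the 5 motifs in capitals, nor to the 3 others searched on both strands: the TEAD motif GGAATG, the SOX motif AACAAAG and the TATA box TATAAA. The 2 E-box motifs differ in letters and so share no match, and the cAMP response element (1.79% of all windows) was found at no member. Windows of the table matched 7 of the 8 members, with GC contents from 51% (Pdgfra) to 76% (Igf1r) beside a median of 52.7% over all windows. Motif matches are descriptions of these letters and say nothing of binding.

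The deposited lists, of broad peaks called for each library, ran to 82319 and 85613 peaks in sgScramble and to 65353 and 71255 in sgArid1a. Without read counts the depth is unknown, and the median −log10 p of a list was 9.20 and 9.02 in sgScramble but 7.06 and 7.62 in sgArid1a. The part that depth played in any difference below was not tested. All 9 melanocyte markers examined, among them Tyr, Dct, Mitf and Sox10, had a peak within 1 kb of a start (or of either gene end where the strand was not known) in all 4 lists. Of 12 markers of other cell types, 11 had none in any list, and Lyz2 had one in all 4.

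In the lists as deposited, regions of open chromatin at the 8 genes were more often missing from the sgArid1a lists than added in them, and list length bears on this. Of 57 regions called in each sgScramble library, 10 had none in either sgArid1a list and are called lost here. That is 17.5% (95% Clopper-Pearson interval 8.75% to 29.9%, counting error over regions only), beside 12.9% of such regions over the genome and 11.8% of those in windows of protein-coding genes. Of 44 regions called in each sgArid1a library, 2 had none in either sgScramble list and are called gained, or 4.55% (0.555% to 15.5%), beside 1.39% over the genome and 1.35% in gene windows. Both backgrounds lie inside these intervals. Lost regions were found at 5 of the 7 members that had a region in each sgScramble list, Met (3), Igf1r (2), Mc1r (2), Pdgfra (2) and Pdgfrb (1), and 37.2% of all protein-coding genes with such a region had at least 1. Gained regions were found at Met alone, and 4.99% of genes with a region in both sgArid1a lists had at least 1. These shares of genes were not matched for the number of regions in a window, which bears on having at least 1. With Met left aside, 7 of 39 regions (17.9%) were lost.

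Another 42 of the 82 regions (51.2%, beside 51.0% over the genome) had a peak in all 4 lists. A further 5 regions were in both sgScramble lists but in just 1 sgArid1a list, that of replicate 1 for 2 of them and replicate 2 for 3. They are 8.77% of the 57 regions in both sgScramble lists, a smaller share than the 14.8% over the genome. The reverse, both sgArid1a lists with just 1 sgScramble list, was found at no region. The other 23 regions were in 1 list only (10 in sgScramble and 11 in sgArid1a) or in 1 list of each group (2). No lost region had an sgArid1a peak within 1 kb: the nearest such peak was between 1181 and 12053 bp away.

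Peaks also covered less of the windows in sgArid1a. Summed over the 8 windows, 61 and 66 peaks were called in the sgScramble libraries and 55 in each sgArid1a library. The length under peaks was 71494 ± 3561 bp in sgScramble and 54513.5 ± 3075 bp in sgArid1a (mean ± SD, n = 2 each), with no overlap between the groups. The sgArid1a mean was 76.2% of the sgScramble mean, and over whole lists it was 77.7%. An exact permutation test of group means, two-sided, gave p = 0.33, the smallest that 2 libraries against 2 can give, so no difference here could pass a usual threshold. When every list was trimmed to the length of the shortest by its −log10 p, the sgArid1a windows held more peaks, 53.5 against 48 on average, with 4 of 45 regions lost (8.89%, beside 6.97% over the genome) and 3 of 43 gained (6.98%, beside 4.37%). The covered length stayed lower in sgArid1a under that trimming, with a mean difference of −5582.5 bp. Trimmed by fold, the covered length was larger in sgArid1a, by 6837.5 bp, so that its direction turned. That trimming takes the lowest-fold peaks of the longer lists first. In the sgScramble lists no Mc1r peak stood above percentile 18.7 of fold, and the Met medians were percentiles 6.50 and 5.01. The part that this played in the turn was not tested. There 2 of 34 regions were lost (5.88%, beside 8.12%) and 4 of 35 gained (11.4%, beside 5.83%).

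**Figure D1:**
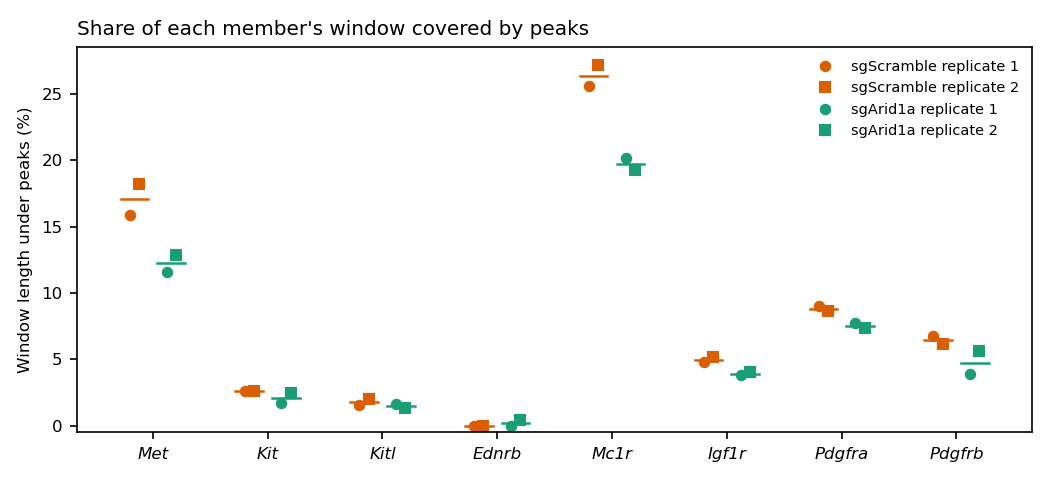
Share of each member's window covered by peaks (percent of window length, vertical axis) in each of the 4 libraries. Points are libraries and horizontal bars are group means. Mc1r and Met have the highest shares, and both sgArid1a points lie below both sgScramble points at 6 of the 8 genes, Kitl and Ednrb being the exceptions.

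At 6 of the 8 members the covered length was lower in both sgArid1a libraries than in both sgScramble libraries, and at Kitl and Ednrb the groups overlapped. The same order held at 57.8% of the 18323 protein-coding genes with a peak in the window, and the reverse order at 2.53%. In lists of equal length by −log10 p it held at 3 members, Mc1r, Pdgfra and Pdgfrb, and at 39.0% of genes with a peak, while Met, Kit and Igf1r overlapped. The median difference over the 7 members with an sgScramble peak was −21.6%, beside −17.2% over 18147 genes. By mean share of the window in sgScramble, the order from most to least covered was Mc1r (26.4%), Met (17.0%), Pdgfra (8.83%), Pdgfrb (6.46%), Igf1r (4.99%), Kit (2.65%), Kitl (1.79%) and Ednrb (0%). In sgArid1a the means were 19.7%, 12.2%, 7.52%, 4.76%, 3.92%, 2.07%, 1.48% and 0.215%, in the same order of genes. Neighbours in this order did not overlap in their single libraries within a group, except Pdgfrb and Igf1r in sgArid1a.

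Kitl, the ligand of Kit, lies on chromosome 10 (100015615 to 100100416) and had 3 regions, 2 of them in all 4 lists and none lost or gained. The region over its start (100015425 to 100016701) was 1277 and 1178 bp wide in the sgScramble libraries and 1190 and 1208 bp in the sgArid1a libraries. Its peak ranked among the strongest of each list, between percentiles 97.5 and 99.0 of fold. The fold is the authors' ratio of signal over background for a peak, and a percentile is the peak's place within its own list. The region inside the gene (100051090 to 100052462) had 681 and 1330 bp covered in sgScramble and 439 and 486 bp in sgArid1a, which was 46.0% of the sgScramble mean. Covered length in the whole Kitl window was 1958 and 2508 bp in sgScramble and 2000 and 1694 bp in sgArid1a (exact permutation test, two-sided, p = 0.667). The mean difference of −386 bp was −111 bp without sgScramble replicate 2, −661 bp without sgScramble replicate 1 and −233 bp without sgArid1a replicate 2.

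Kit, the stem cell factor receptor of melanoblasts, lies on chromosome 5 (75574987 to 75656722). It had 4 regions, 3 in all 4 lists, and likewise none was lost or gained. The start region (75574347 to 75576296) covered 1603 and 1631 bp in sgScramble and 1379 and 1811 bp in sgArid1a, so that the groups overlapped there. The region 86806 bp beyond the start (75661797 to 75662615) was narrower in both sgArid1a libraries, at 232 and 551 bp against 817 and 645 bp. Peaks covered 3212 and 3228 bp of the window in sgScramble and 2050 and 3000 bp in sgArid1a, on average 78.4% as much (exact permutation test, two-sided, p = 0.33). The mean difference of −695 bp was −220 bp without sgArid1a replicate 1 and −1170 bp without replicate 2. Kit and Kitl were thus sparse windows, with 3.29 and 2.40 regions per 100 kb, whose start regions were called in every library.

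**Figure D2:**
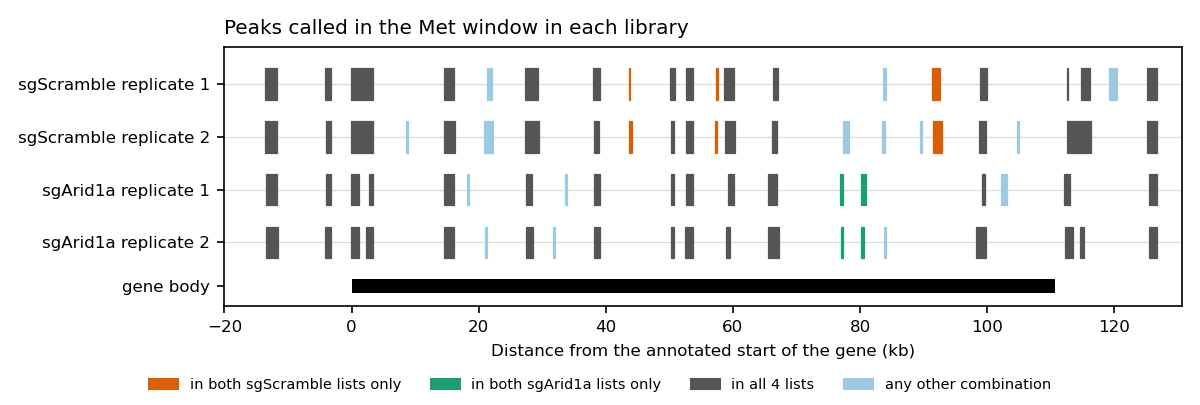
Peaks called in the Met window in each library, by distance in kb from the lower-coordinate end of the annotated gene, with the gene body as a black bar. Colours give the lists in which the merged region has a peak. The start region is 1 peak in each sgScramble library and 2 peaks in each sgArid1a library, and 3 lost and 2 gained regions lie within the gene.

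Met, the receptor of hepatocyte growth factor, lies on chromosome 6 (17463349 to 17573980) and carried the most regions of the 8 genes, 29 in 150.6 kb (19.3 per 100 kb). Its window held 20 and 22 peaks in the sgScramble libraries and 19 and 20 in the sgArid1a libraries. These peaks covered 23937 and 27404 bp in sgScramble and 17490 and 19407 bp in sgArid1a. Both sgArid1a values lie below both sgScramble values, with a mean of 71.9% of theirs, while the numbers of peaks overlap (exact permutation tests, two-sided, p = 0.33 for covered length and p = 0.667 for peaks). In lists of equal length by −log10 p the Met difference all but vanished, at 18128 and 18676 bp in sgScramble and 17490 and 19054 bp in sgArid1a (p = 1 by the same exact test). Of its 18 regions in both sgScramble lists 3 were lost, and of its 15 in both sgArid1a lists 2 were gained.

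The lost Met regions all lay inside the gene body, 42963, 56562 and 90644 bp from the start whose promoter is printed above. The first (17506920 to 17507460) had a fold of 2.07 and 2.41 in sgScramble replicates 1 and 2. The second (17520519 to 17520958) had 2.01 and 1.89. The third (17554601 to 17556242) was the widest of the 10 lost regions, with peaks of 1383 and 1364 bp, and had 2.20 and 2.07. All were weak by fold, at mean percentiles of 2.58, 0.689 and 1.48 within the sgScramble lists, where the median of the 9388 lost regions of the genome was 27.8. Low fold was common at Met, where the median percentile of all 81 peaks was 4.10. By −log10 p the lost regions stood higher, at mean percentiles of 19.6, 27.8 and 10.1. The gained Met regions also lay inside the gene, 76268 and 79554 bp from the start, between the second and the third lost region. The first (17540225 to 17540674) had a fold of 2.19 and 2.31 in sgArid1a replicates 1 and 2 and a −log10 q of 1.17 and 1.80. The second (17543511 to 17544199) had a fold of 2.32 and 2.05 and a −log10 q of 1.75 and 1.23. These q values are close to the lowest in the lists, just above 1, and neither region was called gained when a −log10 q of at least 2 was required. A peak of sgScramble replicate 2 lay 4 bp from the first gained region, so that the absence there rests on where peak edges were drawn.

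At the start of Met the groups differed in the shape of the called region and not in its presence, a pattern picked out after its values were seen. In each sgScramble library a single peak ran from upstream of the start to 17466718 and was 3500 or 3505 bp wide. In each sgArid1a library the same stretch held 2 peaks, of 1249 and 632 bp in replicate 1 and of 1251 and 1109 bp in replicate 2. The covered length of the region was 1881 and 2360 bp in sgArid1a, 60.5% of the sgScramble mean, and a peak lay over the start itself in every list. A region in 1 piece in both sgScramble lists and in 2 or more in both sgArid1a lists was found once among the 42 member regions in all 4 lists, and in 0.140% of the 52885 such regions of the genome. The reverse, 2 or more pieces in both sgScramble lists and 1 in both sgArid1a lists, was found at 0 of the member regions. Over the genome it was found in 0.0908%. The Met peak over the start stood at percentiles 9.21 and 17.4 of fold in the sgScramble lists and at 48.5 and 49.6 in the sgArid1a lists. The deposited fold of that peak was 2.73 and 2.89 in sgScramble and 3.82 and 3.73 in sgArid1a. Its −log10 p was 32.6 and 37.5 in sgScramble and 40.7 and 50.8 in sgArid1a. The second sgArid1a peak of the stretch had a fold of 1.95 and 1.82 and a −log10 p of 5.35 and 5.61. Fold averages over a peak of another width here, and the lists differ in length. These values and ranks therefore cannot show whether strength changed.

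Width differed in both directions among the shared Met regions. Of 13 regions in all 4 lists, 6 were narrower in both sgArid1a than in both sgScramble libraries and 2 were wider. The region 26702 bp from the start (17490659 to 17492758) had 2070 and 2100 bp covered in sgScramble and 1048 and 1207 bp in sgArid1a. The region at 64934 bp (17528891 to 17530533) went the other way, with 886 and 885 bp in sgScramble and 1403 and 1643 bp in sgArid1a. Over all members 15 of 42 shared regions were narrower (35.7%) and 4 were wider, beside 40.6% and 6.45% over the genome, so the share narrower was below that of the genome.

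By the same window rule, Aff3 was the only other protein-coding gene with 3 lost and 2 gained regions, in a window of 494.8 kb. Next to Met in these counts and in window length came Atp9a, Sfxn5, Braf and Mia2, each with 3 lost regions and 1 gained region. Of 21887 genes, 619 had 3 or more lost regions and 29 had 2 or more gained regions, and 6 genes had at least 2 of each kind.

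Igf1r, the receptor of insulin-like growth factor 1, lies on chromosome 7 (67952257 to 68233668) and is the longest member gene, with 22 regions in a window of 321.4 kb. The region over its start (67950594 to 67953206) was 2583 and 2486 bp wide in sgScramble and 2521 and 2371 bp wide in sgArid1a, and the groups overlapped. Peaks in the window numbered 17 and 19 in sgScramble and 15 in each sgArid1a library. They covered 15462 and 16594 bp in sgScramble and 12168 and 13038 bp in sgArid1a, 78.6% as much and without overlap (exact permutation test, two-sided, p = 0.33). In lists of equal length by −log10 p the groups overlapped, and the mean difference was −598.5 bp in place of −3425 bp (exact permutation test, p = 0.667).

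Of the 16 Igf1r regions in both sgScramble lists 2 were lost, and both lay deep in the gene body. The region 257955 bp from the start (68210212 to 68210899) had a fold of 6.76 and 5.85 and a −log10 q of 17.6 and 13.9 in sgScramble replicates 1 and 2. It ranked 15 of the 9388 lost regions of the genome by its mean fold percentile (92.5), and the nearest sgArid1a peaks were 12053 and 12218 bp away. It was the only lost or gained region at these genes that was called under all 8 alternative settings of threshold, list length, width, merging and absence in which regions were followed singly. The other lost Igf1r region, 187464 bp from the start (68139721 to 68140345), was of middling strength, with a fold of 3.28 and 3.17. Igf1r had no gained region, and 13 of its regions were in all 4 lists, 2 of them narrower in both sgArid1a libraries.

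**Figure D3:**
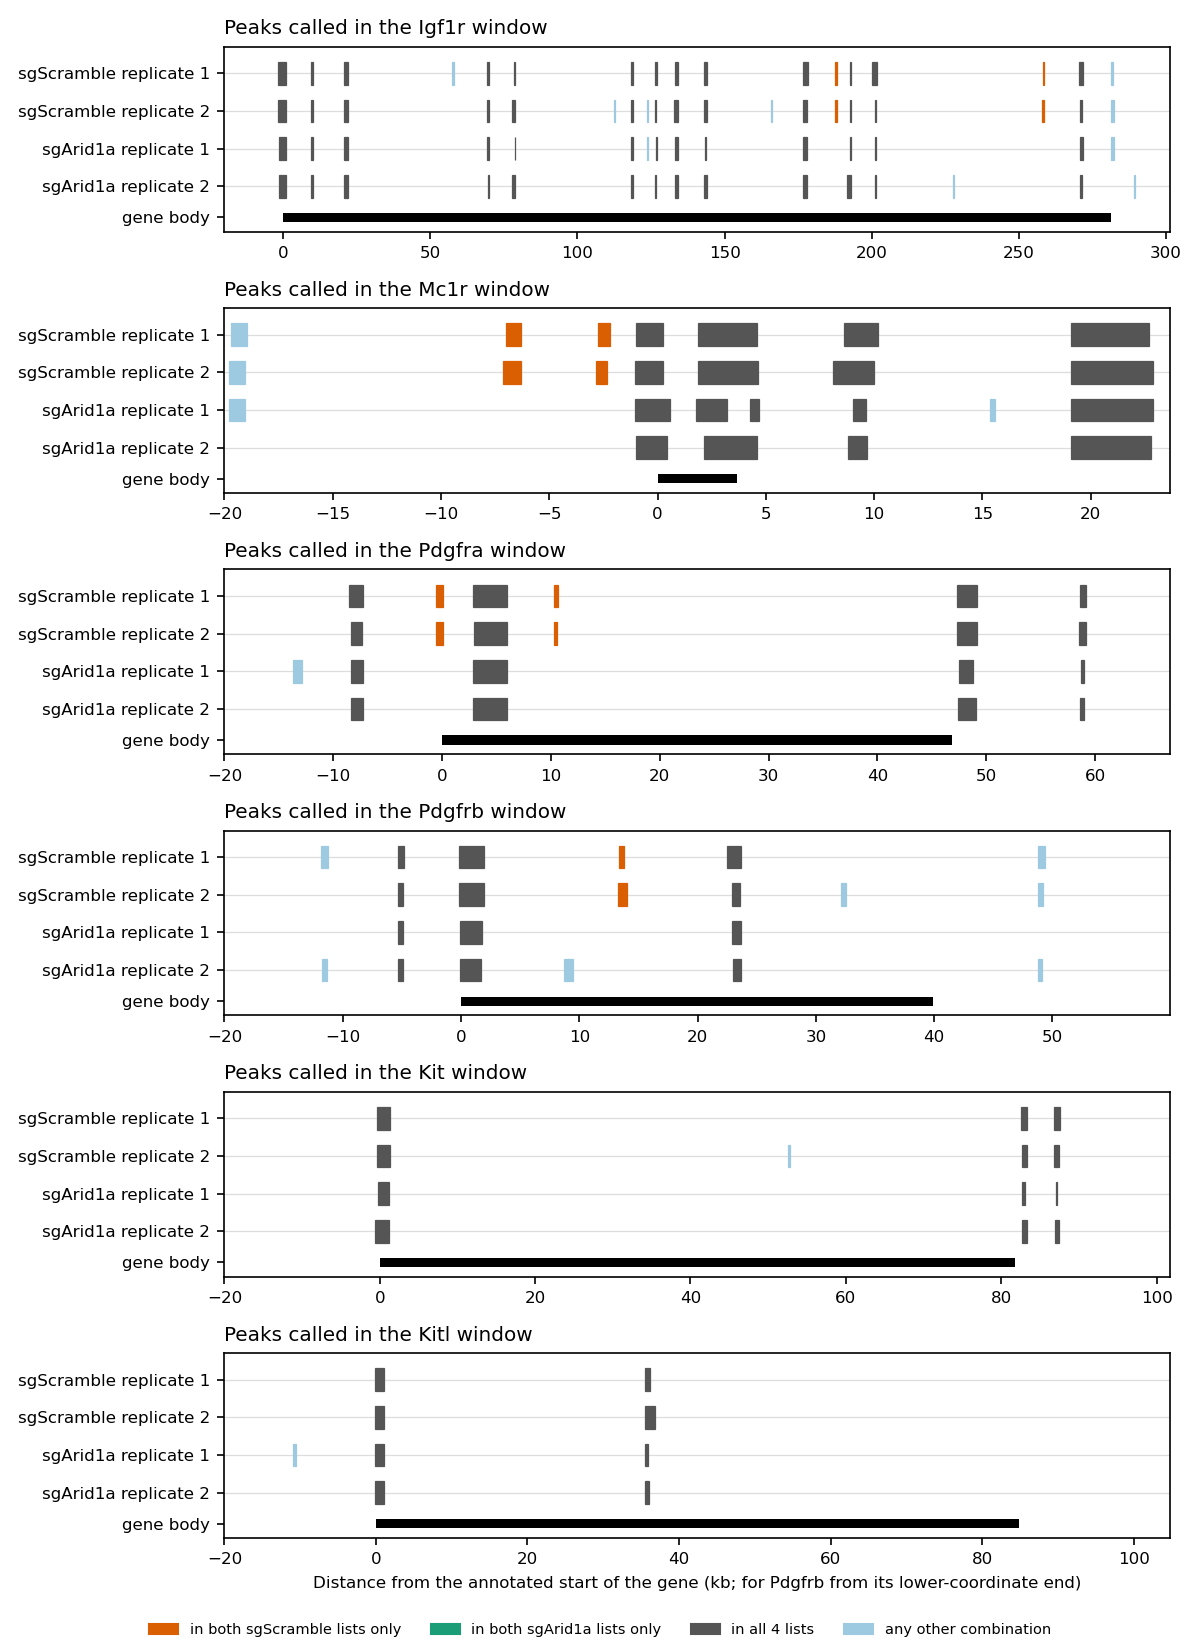
Peaks called in the windows of Igf1r, Mc1r, Pdgfra, Pdgfrb, Kit and Kitl in each library, by distance in kb from the annotated start of the gene (for Pdgfrb from its lower-coordinate end), with the gene body as a black bar. Colours give the lists in which the merged region has a peak, and lost regions are seen at Igf1r (2), Mc1r (2), Pdgfra (2) and Pdgfrb (1). The horizontal scales differ between genes.

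Pdgfra and Pdgfrb encode the alpha and beta receptors of platelet-derived growth factors, best known from mesenchymal cells. Pdgfra lies on chromosome 5 (75151322 to 75198206), and none of its peaks reached its promoter window: the nearest were 878 and 867 bp from the start in sgScramble and 1896 and 1886 bp from it in sgArid1a. The nearest sgScramble peaks formed a lost region across the annotated lower end of the gene, 867 bp before the start (75150747 to 75151384), with a fold of 2.37 and 2.29 and a −log10 q of 4.67 and 4.59. A second lost region lay 9368 bp inside the gene (75161619 to 75162011), with a fold of 2.42 and 3.03. Between them stood a wide region in all 4 lists (75154137 to 75157308), of 3131 and 3081 bp in sgScramble and 3162 and 3171 bp in sgArid1a. The Pdgfra window thus lacked 2 of its 6 sgScramble regions in sgArid1a while its widest region was slightly wider there. Of its 4 regions in all 4 lists, that 1 was wider and 2 were narrower in both sgArid1a libraries. Covered length was 7841 and 7502 bp in sgScramble and 6693 and 6369 bp in sgArid1a, 85.1% as much (exact permutation test, two-sided, p = 0.33).

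Pdgfrb lies on chromosome 18 (61045127 to 61085067), and its window holds parts of the protein-coding genes Cdx1 and Gm52351. Of 5 regions in both sgScramble lists 1 was lost, within the gene body (61058403 to 61059178), with a fold of 3.03 and 3.07. The region over the lower-coordinate end of the gene (61044945 to 61047104) covered 2113 and 2160 bp in sgScramble and 1834 and 1788 bp in sgArid1a. Covered length in the window was 5408 and 4916 bp in sgScramble and 3139 and 4473 bp in sgArid1a. The groups do not overlap, but the 2 sgArid1a libraries are further apart than the gap between the groups (exact permutation test, two-sided, p = 0.33). The mean difference of −1356 bp was −689 bp without sgArid1a replicate 1 and −630 bp in lists of equal length by −log10 p.

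Mc1r is a short gene on chromosome 8 (123407082 to 123410744) in a dense neighbourhood, and its window of 43.7 kb also holds parts of Tcf25 and Tubb3. It had 8 regions, 18.3 per 100 kb, of which 7 were in both sgScramble lists and 4 in both sgArid1a lists. The region over its start (123406047 to 123407651) was wider in sgArid1a, at 1605 and 1415 bp against 1282 and 1261 bp. Upstream, 2 regions were lost. One lay 6315 bp before the start (123399937 to 123400767), overlaps Tcf25, and had a fold of 2.40 and 2.05. The other lay 2216 bp before the start (123404236 to 123404866) and had a fold of 1.46 and 1.45 and a −log10 q of 1.73 and 1.67. The latter was the last but 1 of all 9388 lost regions by fold, ranked 9387, so that its peaks were among the weakest called in either list. Downstream, the region 8086 bp from the start, which overlaps Tubb3 (123415168 to 123417262), had 1594 and 1923 bp covered in sgScramble and 623 and 858 bp in sgArid1a. Peaks in the Mc1r window covered 11158 and 11860 bp in sgScramble and 8799 and 8407 bp in sgArid1a, 74.8% as much and without overlap (exact permutation test, two-sided, p = 0.33).

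Ednrb on chromosome 14 (103814615 to 103844508) had, like Pdgfra, no called peak over its promoter window, and it had the fewest regions of the 8 genes. No peak lay in its window in the sgScramble libraries or in sgArid1a replicate 1. The only peak, in sgArid1a replicate 2 (103834444 to 103834743), was 300 bp wide with a −log10 q of 1.38, and lay 8958 bp inside the gene from the start. In the other 3 libraries the nearest peak to the gene was 35435, 35422 and 35470 bp away. The lists show only what passed the authors' threshold, so accessibility below it was not detectable here.

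The starts given by the promoter table were alike in all 4 libraries in having a peak or not. A peak lay over the promoter window of Met, Kit, Kitl, Mc1r and Igf1r in every list and over that of Pdgfra and Ednrb in none. No region over a promoter window was lost or gained, and Pdgfrb had no window to judge. Kitl and Kit had the strongest start peaks by fold, with Kit between percentiles 80.5 and 93.0, followed by Igf1r between 68.6 and 75.5. The Mc1r start peak stood between percentiles 14.3 and 19.3 of fold over the 4 lists. By −log10 p the same Mc1r peak stood between percentiles 85.3 and 91.7.

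**Figure D4:**
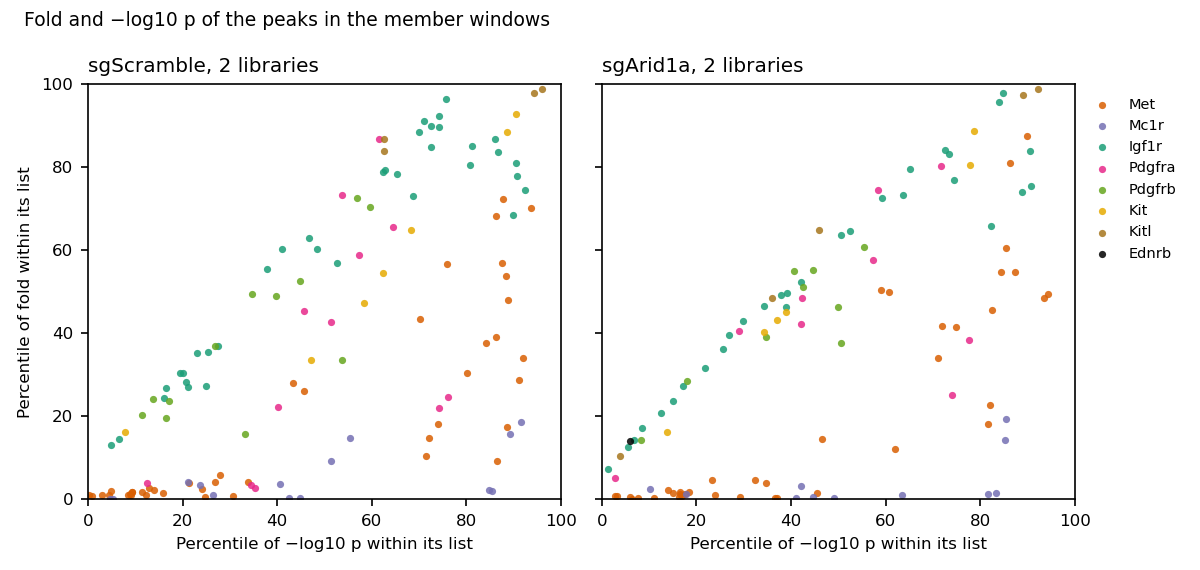
Percentile of the authors' fold (vertical) against percentile of the authors' −log10 p (horizontal) for each peak in the 8 windows, each within its own list, with the sgScramble libraries on the left and the sgArid1a libraries on the right. Points are peaks, coloured by gene. Most peaks of Met and Mc1r lie below those of the other genes at the same −log10 p.

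This gap between fold and −log10 p set Met and Mc1r apart from the other members. Over the 4 lists the median fold percentile was 4.10 for the 81 Met peaks and 2.03 for the 25 Mc1r peaks, while their median −log10 p percentiles were 34.7 and 44.9. Only 37 of 14743 protein-coding genes with at least 10 peaks (0.251%) had a lower median fold percentile than Met, and 10 (0.0678%) a lower one than Mc1r. For Igf1r, Kit, Pdgfra and Pdgfrb the median fold percentiles were 63.4, 47.3, 42.3 and 39.0. The same held in each Met list, with medians of 6.50 and 5.01 in sgScramble and 1.71 and 4.54 in sgArid1a. Peaks within 1 Mb of Met but outside its window stood between 27.8 and 34.1, and those of all of chromosome 6 between 41.0 and 43.5. Around Mc1r the peaks within 1 Mb stood between 35.0 and 38.8. A low fold percentile at Met or Mc1r therefore need not go with a low −log10 p, in either group. Met and Mc1r hold 29 and 8 of the 82 regions.

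The genes that work with these receptors were counted in the same windows, in 6 lists of 84 symbols, 83 of them matched to a protein-coding gene. Of the other growth receptors 8 of 63 regions in both sgScramble lists were lost (12.7%), with Fgfr2, a fibroblast growth factor receptor, at 2 of 7. Among ligands 4 of 29 were lost (13.8%). Of 21 ligand regions in both sgArid1a lists 2 were gained, 1 at the platelet-derived growth factor gene Pdgfc and 1 at Fgf2. That is 9.52%, beside 1.39% over the genome and 0% to 2.86% in the other lists. The share rests on these 2 regions, and the alternative settings were not run for the 6 lists. Fgf2, a melanocyte mitogen, also lacked 1 of its 5 regions, Igf1, the ligand of Igf1r, 1 of 2 and Pdgfd 1 of 3. Adaptors and proximal enzymes had 15 of 145 lost (10.3%), with the Ras exchange factor Sos2 at 3 of 12 and the kinase Fyn at 2 of 13. In the G protein and cAMP list 22 of 188 were lost (11.7%), with the cAMP phosphodiesterase Pde4d at 6 of 46 and Gnaq, the G protein subunit that couples Ednrb, at 3 of 17 and 1 gained.

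Downstream, the Ras to ERK list had 12 of 89 regions lost (13.5%), with the kinase Braf at 3 of 11 and 1 gained, and Hras at 2 of 4. The PI3K to AKT list had 22 of 123 lost (17.9%), with Pik3ca, a catalytic subunit of PI3K, at 4 of 10 and Pdpk1 at 3 of 9. The lost shares of the 6 lists lie between 10.3% and 17.9%, around the genome's 12.9%. Of the 83 genes, 50 had a lost and 7 a gained region, beside 37.2% and 4.99% of all genes with a region in both lists of the group. These are not like for like. The 83 were not limited to genes with such a region, and the number of regions in a window was not matched. A window with more regions has more that can be lost, so the gene counts cannot show whether these genes are enriched or not. Covered length was lower in both sgArid1a libraries at 15 of 16 adaptors, 14 of 16 G protein and cAMP genes, 7 of 12 other receptors, 6 of 12 Ras to ERK genes, 10 of 15 PI3K to AKT genes and 2 of 11 ligands, beside 57.8% of all genes with a peak. The number of regions was not matched here either. In lists of equal length by −log10 p the share over all genes was 39.0%, and the 6 lists were not recounted there.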

How the data were processed

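ATAC-seq was run on B16F10 cells with sgScramble or sgArid1a (2 libraries each); groups and replicate numbers came from the sample titles. What the authors deposited was 1 list of broad peaks for each library, not for pooled reads. For every peak the authors gave a score, which was not used, and a fold, the ratio of its signal to background. Its significance was deposited as the −log10 of a p-value and of a q-value. Per the submitters' processing notes, STAR (2.5.3a) and HOMER were used with GRCm38, also named mm10, without stated roles. Which peak caller was used, and whether read ends were shifted for Tn5, is not given in the sources used here. Since depth and background move these values, peaks were ranked by them within a list only.

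Peaks overlapping by at least 1 bp were merged into regions. A list had a region when a peak of it overlapped the region by at least 1 bp. Gene bounds were those of RefSeq on GRCm38.p6, the build of mm10, and starts and promoter sequences from its promoter table. Exons and introns were not used here. Covered length was tested by exact permutation of the group labels, two-sided. The named genes were the 8 members with every lost or gained region and start region, up to 3 genes per pathway list with the most lost or gained regions, and up to 5 genes closest to Met in these counts; 1 gene that the rule names is not reported here. The members and lists were chosen with earlier results of these data known. The steps were tested on simulated data. Alternatives covered the q threshold, list length, width, window, merging, overlap, absence, each library left out, and the replicate number as a block. Tools were Python 3.11.15, numpy 2.4.6, pandas 2.3.3, SciPy 1.17.1 and matplotlib 3.10.9.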

Additional observations from a re-analysis of the deposited data

How the results depend on the processing

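The 10 lost regions became 4 in lists of equal length by −log10 p and 2 by fold, and 12 to 18 when a library was left out (18 without sgScramble replicate 1, where presence rests on fewer lists). The lost share of 17.5% (genome 12.9%) became 30.6% (21.5%) at a −log10 q of at least 5 and 5.88% (8.12%) in lists of equal length by fold. It was 21.1% to 27.3% with a library left out (genome 17.4% to 23.1%), and without sgArid1a replicate 2 it lay below the genome, at 22.8% against 23.1%. The 2 gained regions, and the 4.55% share, became 0 at a −log10 q of at least 2 or 5, with peaks at least 500 bp wide, and with presence but not absence held to a −log10 q of 2. They became 1 when peaks within 1 kb were merged or when no peak was allowed within 500 bp, and 4 in lists of equal length by fold. With a library left out there were 2 to 8 gained regions (7 without sgArid1a replicate 1 and 8 without replicate 2), or 4.55% to 15.1% (genome 2.85% to 8.01%). The mean difference of −8.5 peaks per library reversed to 5.5 in lists of equal length by −log10 p and to 10.5 by fold, and was −11 to −6 with a library left out. The difference in covered length, −16980.5 bp, reversed to 6837.5 bp in lists of equal length by fold (exact permutation p = 0.667) and was −5582.5 bp by −log10 p. It was −19498.5 to −14462.5 bp with a library left out. Equal length removes more of the longer sgScramble lists by construction, and by fold it first removes low-fold peaks, which are common at Met and Mc1r. Ednrb, at 150 bp of difference, had 0 at a −log10 q of at least 2, in lists of equal length by −log10 p, and without sgArid1a replicate 2, and 300 bp without sgArid1a replicate 1. The other 7 members kept the sign of their mean difference in the alternatives run for single genes, but in lists of equal length by −log10 p those of Met (−7222 bp) and Igf1r (−3425 bp) shrank to −130 and −598.5 bp, and leaving out 1 library moved those of Kit, Kitl and Pdgfrb by over 1.5 times. Replicate numbers are shared by the groups in name only; with the replicate number as a block, differences were −8.5 peaks and −16980.5 bp, each with exact permutation p = 0.5, the smallest this pairing allows. Limits: 2 libraries a group, unknown depth, lists with a threshold, and neighbouring genes inside the windows of Mc1r, Igf1r and Pdgfrb.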
